A study of Oncorhynchus mykiss with 24 samples.

Results

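Livers of trout fed indole-3-carbinol (I3C) at 1500 ppm were compared with livers of trout fed β-naphthoflavone (BNF) at 500 ppm. The arrays were chosen by their titles: 2 RNA samples of each diet, each on 2 dye-swapped arrays, which makes 4 of the 12 RNA samples and 8 of the 24 arrays of the series. All fish were juvenile rainbow trout (Oncorhynchus mykiss) of the Mt. Shasta strain, aged 12 to 18 months, kept on a semi-purified casein diet. Each diet was given to 2 tanks of 6 fish over 12 days, and livers were taken on day 13. Every treated RNA was hybridised against the same reference, pooled in equal amounts from the livers of 12 fish whose diet held 0.15% dimethyl sulfoxide, the vehicle. That pool cancels when the diets are subtracted from each other. A pair of further diets is given alongside, I3C at 500 ppm, which matches the BNF dose, and 3,3'-diindolylmethane (DIM) at 1500 ppm, with 2 RNA samples each. The labels give the compounds as abbreviations, which are read here in their usual meaning, and do not say which fish stand behind a treated sample. The p-values are therefore set against the spread of these RNA samples, part of which may be technical. Because the I3C and BNF diets differed in dose as well as in compound, the effects of compound and dose cannot be told apart in the main comparison.

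BNF is a synthetic flavone and a standard ligand of the aryl hydrocarbon receptor, a transcription factor that switches on enzymes such as CYP1A in fish liver. I3C is formed when cruciferous vegetables are cut or chewed, and in stomach acid it condenses to several products, of which DIM is one. Some of these products bind the aryl hydrocarbon receptor, and indoles are also known for estrogen-like effects in trout liver, where estrogens drive the making of egg-yolk proteins. The question the contrast addresses is whether liver transcripts differ between an indole diet and a diet with a plain receptor agonist.

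The array carried 8736 spots, taken as 4368 adjacent pairs of the same probe, called features here. Reference annotation paired 49 features with 32 gene symbols, and the other 4319 features are unnamed here and are given by the number of their first spot. All values are log2 ratios of treated liver over the vehicle pool, so a spot carries no level, and the liver label could not be checked against absolute marker levels. Higher and lower are in the likely direction only: the labels place Cy3 in channel 1 on every array, but do not state which dye was the numerator. If Cy5 was, higher and lower change places throughout. The log base is taken as 2, and a natural log is not excluded. It would make changes larger on the arrays deposited as logs. The Cy5-titled array of BNF replicate 1 was deposited as a linear ratio and converted to log2. With a natural log on the others, that sample would mix 2 scales. The correlation of paired spots was 0.41 and 0.57 on the arrays of BNF replicate 1, against 0.81 to 0.94 on the other 14 arrays of the 4 diets. The 4 diets were fitted together. The estradiol and DIM 500 ppm diets of the series entered an alternative fit only, since the sign of 4 of their arrays is unsettled: these correlated negatively with arrays labelled in the same dye.

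Liver expression differed between I3C at 1500 ppm and BNF at 500 ppm in 189 of 4368 features, which is 4.33% of those tested (limma, Benjamini-Hochberg adjusted p under 0.05). Of these, 89 were higher with I3C (2.04%) and 100 were lower (2.29%). The median difference of I3C minus BNF was 1.44 among the 89 higher features, with a range of 0.83 to 5.00, and -1.19 among the 100 lower ones, with a range of -2.44 to -0.83. Over all features it was -0.014. A difference above 1 in size was seen in 153 of the 189 and above 2 in 23, of which 14 were higher and 9 lower with I3C.

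These differences lay mostly in the ratios of the I3C livers. Among the 89 higher features the median ratio to the vehicle pool was 1.21 with I3C and -0.21 with BNF, and among the 100 lower features it was -1.23 with I3C and -0.017 with BNF. In 183 of the 189 the mean ratio was farther from 0 with I3C, which held for 2590 of all 4368 features, and in 6 it was farther from 0 with BNF. The BNF mean lay within 0.5 of 0 in 172 of the 189, and in 4276 of all 4368, a larger share. In 71 of the 189, all samples of one diet lay on the opposite side of 0 from all samples of the other, as in 960 of all 4368. These counts describe features chosen on the same difference and are no test of it.

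The same contrast showed in the spread over all features. The ratios had a standard deviation across features of 0.46 and 0.44 in the I3C samples, against 0.26 and 0.30 in the BNF samples. These values come from arrays that were not scaled to 1 spread. The median absolute deviation of single arrays ran from 0.45 to 1.04 with I3C at 1500 ppm and from 0.40 to 1.07 with BNF. It was 0.40 and 0.45 on the arrays of BNF replicate 1. Both samples of a diet were above 1 for 60 features and below -1 for 66 with I3C, against 2 above and 1 below with BNF. Across features the 2 I3C samples correlated at 0.75 and the 2 BNF samples at 0.16. Both correlations share the pool, and the lower one includes the sample whose paired spots agreed least. I3C at 500 ppm gave standard deviations of 0.29 and 0.41 and a correlation of 0.37. Both of its samples were above 1 for 7 features and below -1 for 1. DIM at 1500 ppm gave standard deviations of 0.48 and 0.52, a correlation of 0.57, and 75 features above and 85 below.

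**Figure D1:**
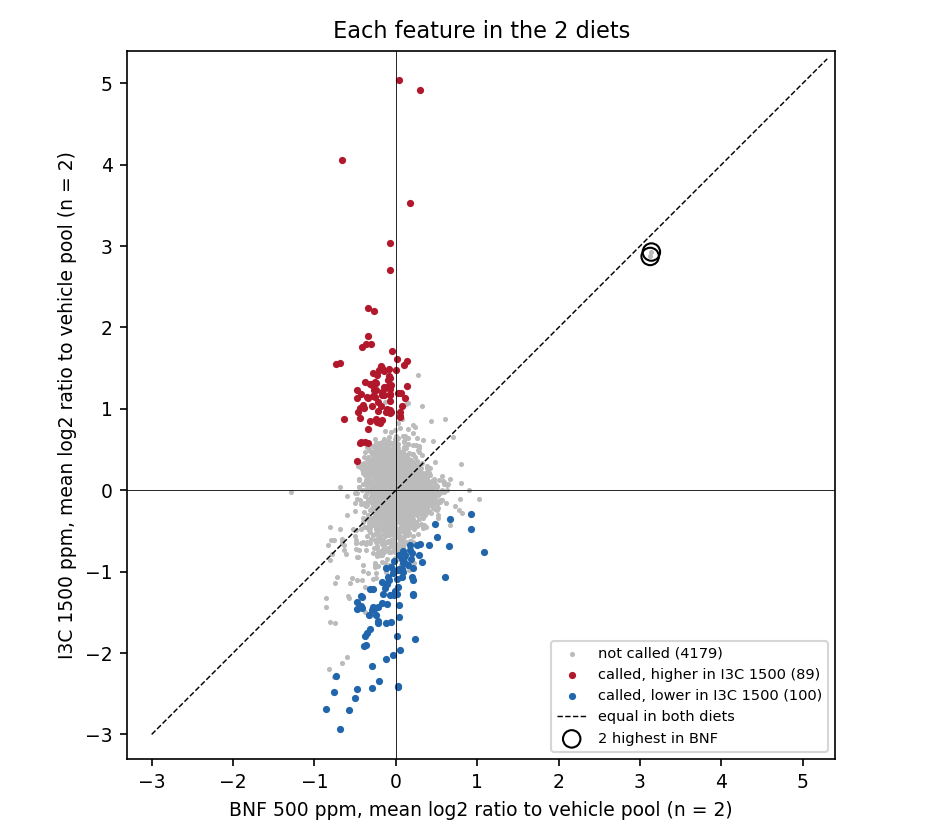
Each point is 1 of 4368 features, with its mean log2 ratio to the vehicle pool for the I3C 1500 ppm and BNF 500 ppm diets on the axes, and colours for features higher or lower with I3C at an adjusted p under 0.05. The 189 coloured features spread along the I3C axis. For BNF, 172 of them lie within 0.5 of 0, as do 4276 of all 4368 features, a larger share. Near 3 on both axes stand 2 uncoloured features.

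All 189 differences had the same sign in both dye orientations, against 62.5% of all features, and in all 189 the samples of the diets did not overlap, against 53.2% of all features. Both properties follow in part from the choice of called features. Each of the 48 print blocks of 91 features, read from the spot numbers, held between 1 and 7 of the calls. Whether calls followed a position within the blocks was not tested. The count of 189 was 115 without I3C replicate 1 and 107 without I3C replicate 2, and 75 when arrays were scaled to 1 spread, 95 on Cy3-titled and 59 on Cy5-titled arrays alone. Without centring the arrays, 71.6% of 134 calls were higher with I3C, against 47.1% of the 189, while the median of all features moved to 0.21. The share also changed with dye orientation. It was 72.6% of the 95 calls on Cy3-titled arrays alone and 33.9% of the 59 on Cy5-titled arrays alone.

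The largest differences belonged to unnamed features. Feature 10020301 had log2 ratios of 5.16 and 4.92 with I3C at 1500 ppm, against -0.30 and 0.37 with BNF. Both I3C samples stood far above the pool and both BNF samples close to it. The difference was 5.00 ± 0.26 (SE), a 32.0-fold higher ratio with I3C, with a limma adjusted p of 1.06e-09. Feature 12041011 gave 3.56 and 4.55 with I3C and -0.61 and -0.72 with BNF, so that the diets lay on opposite sides of the pool. Its difference was 4.72 ± 0.28 (SE), or 26.4-fold (limma adjusted p = 5.8e-09).

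On the low side, feature 7020301 had ratios of -2.09 and -2.73 with I3C, against 0.46 and -0.41 with BNF. Its difference of -2.44 ± 0.39 (SE) made the BNF ratio 5.41-fold the I3C ratio (limma adjusted p = 0.000722). Feature 4030603 was similar, at -2.20 and -2.61 with I3C and 0.73 and -0.69 with BNF. The I3C samples of both features lay below all BNF samples, and the BNF samples lay on either side of the pool. For feature 4030603 the difference was -2.42 ± 0.38 (SE), with a limma adjusted p of 0.000562. These 4 features were named by a rule that took the 2 largest called differences in each direction, and their calls held in 15 of 16 alternatives, failing with the 4 arrays of unsettled sign as deposited (adjusted p = 0.700).

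**Figure D2:**
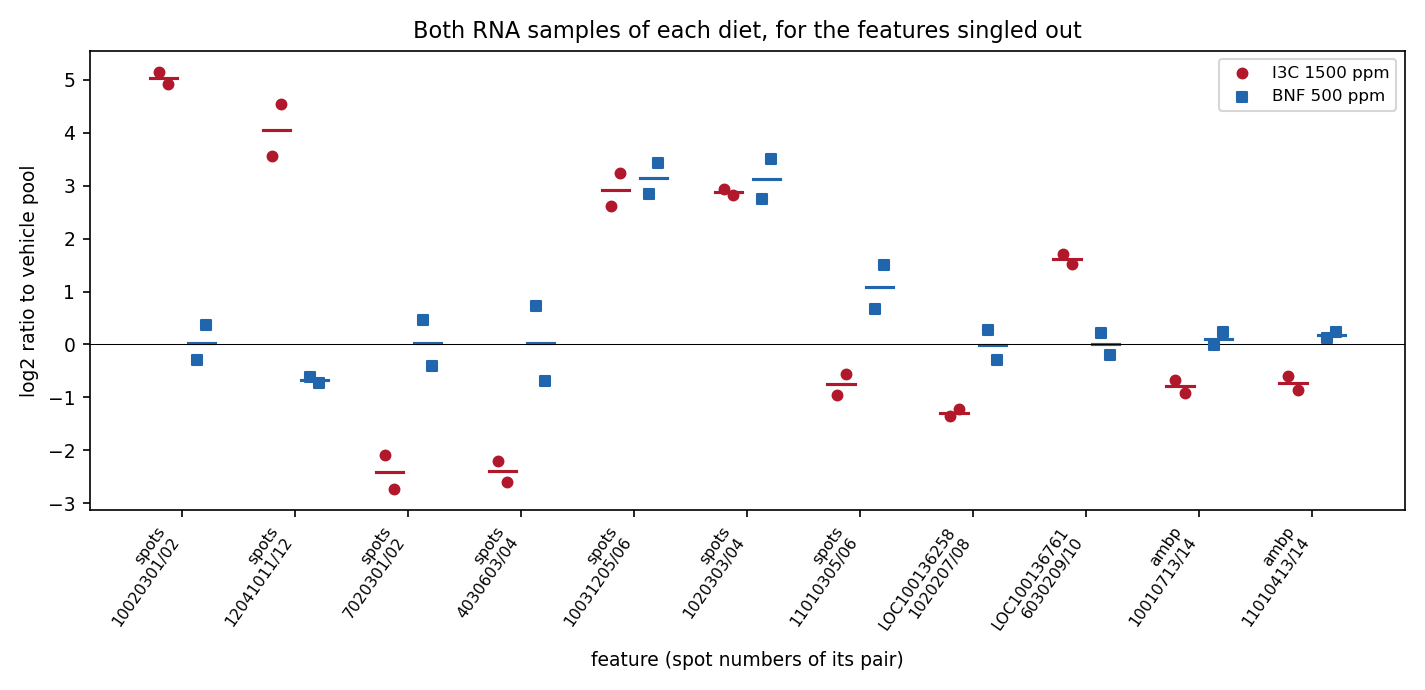
Points are the log2 ratios to the vehicle pool of single RNA samples, with I3C 1500 ppm left of BNF 500 ppm for each feature. Drawn are the called annotated features and the unnamed features singled out for the main comparison, not all features named in the text. The diets do not overlap in the called features, whereas for features 10031205 and 1020303 all 4 samples lie between 2.62 and 3.51.

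The 2 features with the highest mean ratio under BNF were high with I3C as well. Feature 10031205 had ratios of 2.62 and 3.23 with I3C, against 2.84 and 3.44 with BNF, and the samples of the diets overlapped. The difference was -0.21, with a 95% interval of -0.77 to 0.35 and a limma adjusted p of 0.735. For feature 1020303 the ratios were 2.93 and 2.82 with I3C and 2.74 and 3.51 with BNF, and the difference was -0.25 (95% interval -0.91 to 0.40, limma adjusted p = 0.732). Since these features were chosen as the highest in BNF, their differences lean toward BNF by choice and are given as a description. Under 16 alternatives they ran from -1.34 to 0.17 for feature 10031205 and from -1.0 to 0.13 for feature 1020303, and none passed the test. Across the 4368 features only 4 had a BNF mean above 1, against 74 with I3C, and 1 had a BNF mean below -1, against 89 with I3C.

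In 6 called features the BNF mean was the one farther from 0. Feature 11010305, named after its values were seen because it had the highest BNF mean among the 189, gave -0.95 and -0.56 with I3C, against 0.67 and 1.49 with BNF. Its diets lay on opposite sides of the pool, with a difference of -1.84 ± 0.28 (SE, limma adjusted p = 0.000526). This call was absent on the Cy5-titled arrays alone (limma adjusted p = 0.238) and with the 4 unsettled arrays as deposited.

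Among genes with a name, 4 of 49 annotated features were called (8.16%, against 4.33% of all features), 1 higher and 3 lower with I3C. The median difference of all 49 annotated features was -0.053, against -0.014 over all features. The 45 that were not called ran from -0.76 to 0.55. The unadjusted limma p was under 0.05 in 7 of these 45, and in 605 of all 4368 features, called ones included. The annotated features are few and were not drawn to represent the array.

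The list of plasma proteins and protease inhibitors, made in hepatocytes and secreted into blood, had 3 features of 2 genes. Both features of 1 gene, ambp, were lower with I3C, where 2.29% of all features were lower. The gene ambp encodes the precursor of α1-microglobulin, a heme-binding plasma protein, and of bikunin, a serine protease inhibitor. Its first feature (11010413) had ratios of -0.60 and -0.87 with I3C, against 0.11 and 0.23 with BNF. Its second (10010713) had -0.67 and -0.91 with I3C, against -0.017 and 0.23 with BNF. In both features the I3C samples lay below the pool and below every BNF sample. The differences were -0.91 ± 0.23 (SE, limma adjusted p = 0.0301) and -0.90 ± 0.24 (SE, limma adjusted p = 0.0389). On Cy3-titled arrays alone they were -0.42 and -0.64, and on Cy5-titled arrays alone -1.39 and -1.16. For feature 11010413 the I3C values were -0.074 and 0.32 on Cy3-titled arrays, and -1.12 and -2.05 on Cy5-titled ones, signed as treated over pool. Both features derive from 1 source sequence and are not independent of each other. Each of the ambp calls was lost in 10 of 17 alternatives: without centring the arrays the adjusted p was 0.409 and 0.415, and leaving out single samples gave 0.0904 to 0.394.

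The other gene, antiprot1, an antiproteinase by its name, had -0.53 and -1.0 with I3C, against -0.30 and 0.28 with BNF. Its difference of -0.76 ± 0.26 (SE) did not pass the test (limma adjusted p = 0.144). The median difference of the 3 features was -0.90, which is set by the ambp pair, against -0.014 over all features. In bulk liver, fewer cells of a type and less RNA per cell cannot be told apart. The gene ambp was also the only hepatocyte marker of the list with a feature.

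Of the other called genes, LOC100136761 was higher with I3C. Feature 6030209 had ratios of 1.70 and 1.52 with I3C, against 0.22 and -0.20 with BNF. The difference was 1.60 ± 0.25 (SE), a 3.03-fold higher ratio (limma adjusted p = 0.000526). Its 2 other features, from different source sequences, gave differences of -0.079 and -0.088, so the 3 features of the symbol disagreed, and their average of 0.48 did not pass (limma adjusted p = 0.354). The call on feature 6030209 was also lost on Cy5-titled arrays alone and with scaled arrays (limma adjusted p = 0.0526 and 0.0621). LOC100136258 (feature 1020207) was lower, at -1.36 and -1.22 with I3C and 0.26 and -0.30 with BNF. That difference was -1.27 ± 0.31 (SE, limma adjusted p = 0.0196), and its call was lost in 8 of 17 alternatives. Among these were the fits without I3C replicate 1, I3C replicate 2 or BNF replicate 1, with differences of -1.21, -1.34 and -0.99. Others were Cy3-titled arrays alone, scaled arrays and single spots (limma adjusted p = 0.349, 0.199 and 0.177). The annotation gives no role for either symbol.

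**Figure D3:**
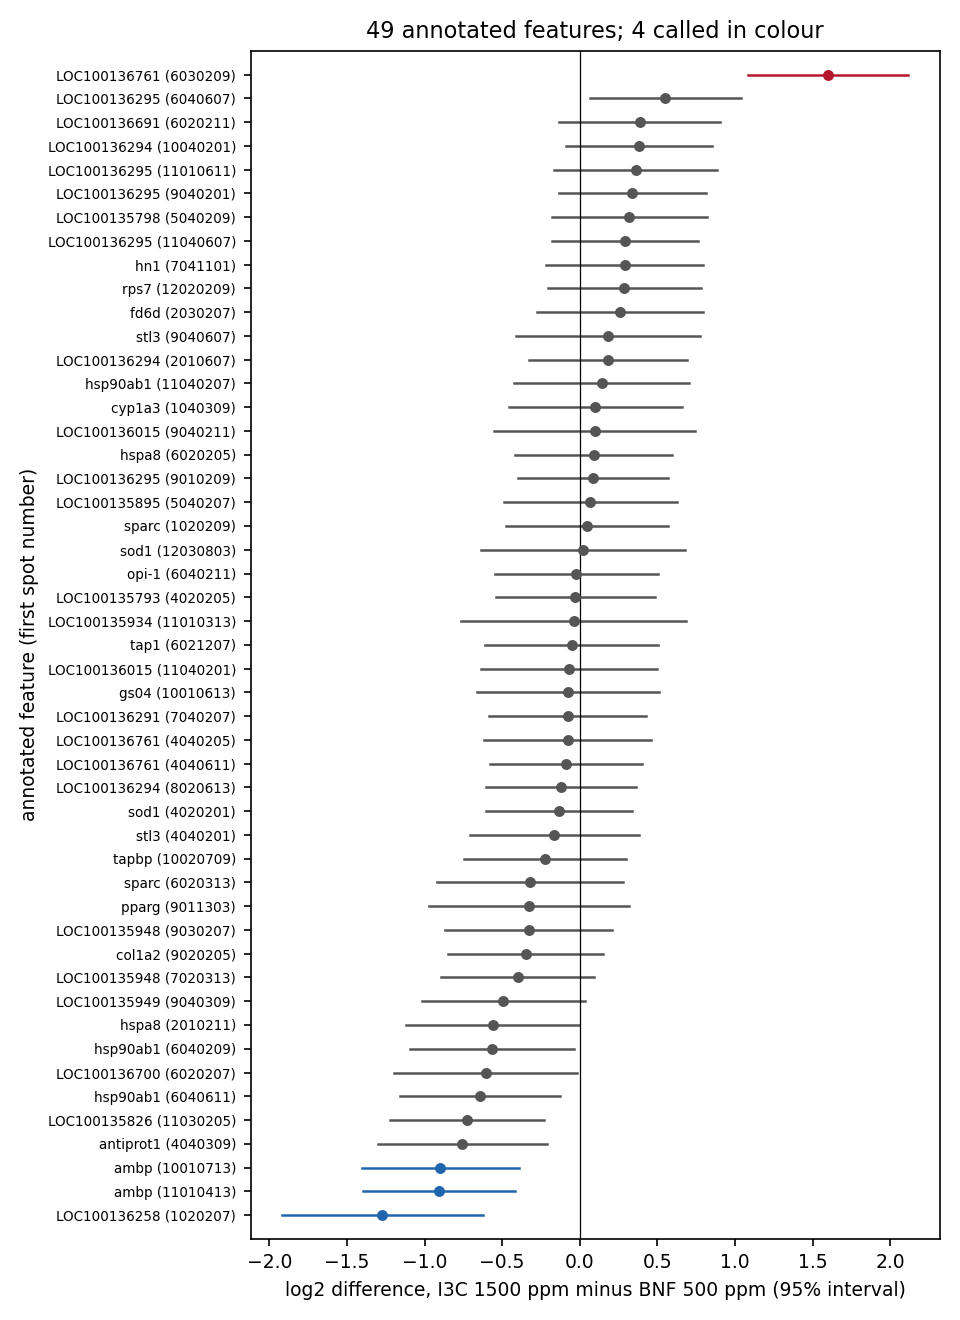
The differences of I3C 1500 ppm minus BNF 500 ppm on the log2 scale are drawn for the 49 annotated features, with 95% limma intervals as bars and the called features marked. The 4 called features lie at 1.60, -1.27, -0.91 and -0.90, and the other 45 lie between -0.76 and 0.55.

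The aryl hydrocarbon receptor list had 1 measured feature, cyp1a3, a trout gene of the CYP1A family. It gave 0.22 and 0.17 with I3C, against 0.16 and 0.030 with BNF. All 4 sample values, each a mean over 2 dye orientations, lay close to the pool. Single arrays, signed so that positive is higher in the treated liver, did not all do so. Replicate 2 gave -1.29 with I3C and -1.33 with BNF on Cy3-titled arrays, but 1.64 and 1.39 on Cy5-titled ones. Replicate 1 gave -0.18 and 0.068 on Cy3-titled arrays, and 0.62 and 0.26 on Cy5-titled ones. The difference was 0.10 ± 0.26 (SE), with a 95% interval of -0.45 to 0.65 and a limma adjusted p of 0.88.

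Chaperones had 5 features of hsp90ab1 and hspa8, which encode the cytosolic proteins HSP90β and HSC70 that fold and hold client proteins. None of the 5 was called, and their median difference was -0.56. For hsp90ab1, features 6040611 and 6040209, which share a source sequence, gave -0.64 ± 0.24 (SE, limma adjusted p = 0.209) and -0.57 ± 0.25 (SE, limma adjusted p = 0.306). In the first, the samples were -0.42 and -0.61 with I3C and 0.33 and -0.078 with BNF, with no overlap. Its I3C values, signed as treated over pool, were 0.15 and 0.39 on Cy3-titled arrays, and -0.99 and -1.62 on Cy5-titled ones. Its BNF values were 0.47 and 0.45 on Cy3-titled arrays, and 0.19 and -0.61 on Cy5-titled ones. The differences of features 6040611 and 6040209 were -0.19 and -0.14 on Cy3-titled arrays alone. On Cy5-titled arrays alone they were -1.096 and -0.995. The other feature of hsp90ab1 gave 0.14. The features of hspa8 gave -0.56 (limma adjusted p = 0.354) and 0.089.

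Extracellular matrix genes had 3 features, none called, with a median difference of -0.32. The gene col1a2, which encodes a chain of type I collagen, had -0.69 and -0.95 with I3C, against -0.48 and -0.46 with BNF. All 4 sample values lay below the pool, and the difference of -0.35 ± 0.24 (SE) did not pass (limma adjusted p = 0.533). The dye orientations disagreed, with a difference of 0.097 on Cy3-titled arrays alone and -0.80 on Cy5-titled ones. Signed as treated over pool, the Cy3-titled arrays gave -0.029 and 0.18 with I3C and -0.26 and 0.21 with BNF. The Cy5-titled arrays gave -1.36 and -2.08 with I3C and -0.70 and -1.14 with BNF. The gene sparc, which encodes a collagen-binding matrix protein, gave -0.32 and 0.047 in its features. The same 3 features are the stromal cell markers.

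The remaining lists were thin, and none of their features was called. For sod1, the cytosolic superoxide dismutase, the differences were -0.13 and 0.021. The gene fd6d, a fatty acid desaturase, gave 0.26, and pparg, a nuclear receptor of lipid storage, gave -0.33. The ribosomal protein gene rps7 gave 0.29. The red cell marker LOC100135826, listed with the synonym CA2, a carbonic anhydrase, had -0.63 and -0.86 with I3C, against -0.18 and 0.13 with BNF. Its difference was -0.73 ± 0.24 (SE, limma adjusted p = 0.118), and it passed with print blocks centred (0.0454) and with array weights (0.0442). The dye orientations of this feature lay on opposite sides of the pool, signed as treated over pool. Cy3-titled arrays gave 0.14 and 0.43 with I3C and 0.36 and 0.98 with BNF. Cy5-titled arrays gave -1.40 and -2.16 with I3C and -0.72 and -0.71 with BNF. The annotated globin LOC100136291, listed with the synonym hbb4, differed by -0.079. Whether red cell or stromal content had a part in the other differences was not tested. The lists of estrogen-responsive, immune and proliferation genes, and the markers of leukocytes, muscle and pancreas, had no annotated feature, so egg-yolk genes could not be read. The immune list as drawn up did not include the annotated genes tap1 and tapbp. Their features differed by -0.053 and -0.22 and were not called. The 29 annotated features outside the lists that were not called ran from -0.61 to 0.55.

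At the dose of the BNF diet, I3C at 500 ppm differed from BNF at 500 ppm in 8 features (0.183%), 6 higher (0.137%) and 2 lower (0.0458%) with I3C. The number with an unadjusted limma p under 0.05 was 239 of 4368, against 605 of 4368 for I3C at 1500 ppm. Both comparisons use the same BNF samples. The count of 8 was sensitive to single samples, at 113 without I3C 500 ppm replicate 1 and 26 without replicate 2, and at 16 without BNF replicate 1.

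The 6 higher features were named after their values were seen, as the calls of this contrast. Feature 10020301 had ratios of 4.49 and 4.30 with I3C at 500 ppm, against -0.30 and 0.37 with BNF, a difference of 4.36 (limma adjusted p = 1.39e-08). This call was lost in 2 of 16 alternatives. These were scaled arrays (difference 3.74, limma adjusted p = 0.311) and the fit with the 4 unsettled arrays as deposited. Feature 12041011 gave 3.31 and 3.56 with I3C at 500 ppm, and its difference was 4.10 (limma adjusted p = 5.7e-08). Feature 12020713 had 4.05 and 4.14 with I3C at 500 ppm, against 0.21 and 0.38 with BNF. All I3C samples of these 3 features stood above 3, and no BNF sample stood above 0.5. Features 4020613, 6030211 and 3040413 differed by 2.24, 2.21 and 1.49. At 1500 ppm the same features differed from BNF by 3.10, 3.36 and 2.29.

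The 2 lower features were 10031205 and 1020303, the ones highest in BNF. Feature 10031205 had 1.4 and 1.36 with I3C at 500 ppm, against 2.84 and 3.44 with BNF. Here the matched doses separated, with a difference of -1.76 (95% interval -2.32 to -1.20, limma adjusted p = 0.00277). Feature 1020303 had 0.99 and 1.98 with I3C at 500 ppm, against 2.74 and 3.51 with BNF. Its difference was -1.64 (95% interval -2.30 to -0.98, limma adjusted p = 0.0332). The DIM diet gave 1.28 and 1.32 for the first and 1.0 and 1.28 for the second. Both features were picked as highest in BNF, so the sizes lean toward BNF. The call on 1020303 was lost in 9 of 16 alternatives, among them the fit without BNF replicate 2 (limma adjusted p = 0.198), and that on 10031205 in 5, among them scaled arrays (limma adjusted p = 0.183).

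The features called between I3C at 1500 ppm and BNF can be followed through the other diets as a description. Among the 89 higher features the median ratio was 0.47 with I3C at 500 ppm, 1.21 with I3C at 1500 ppm and 1.42 with DIM at 1500 ppm, against -0.21 with BNF. Among the 100 lower features it was -0.40 with I3C at 500 ppm, -1.23 with I3C at 1500 ppm and -1.32 with DIM at 1500 ppm, against -0.017 with BNF. The medians with I3C at 500 ppm lay between those with BNF and those with I3C at 1500 ppm in both sets. All these ratios share the vehicle pool, and the sets were chosen on the I3C 1500 ppm and BNF samples. Feature 7020301 had -0.24 and -0.16 with I3C at 500 ppm and -3.84 and -2.26 with DIM, and feature 10020301 had 5.07 and 5.27 with DIM.

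**Figure D4:**
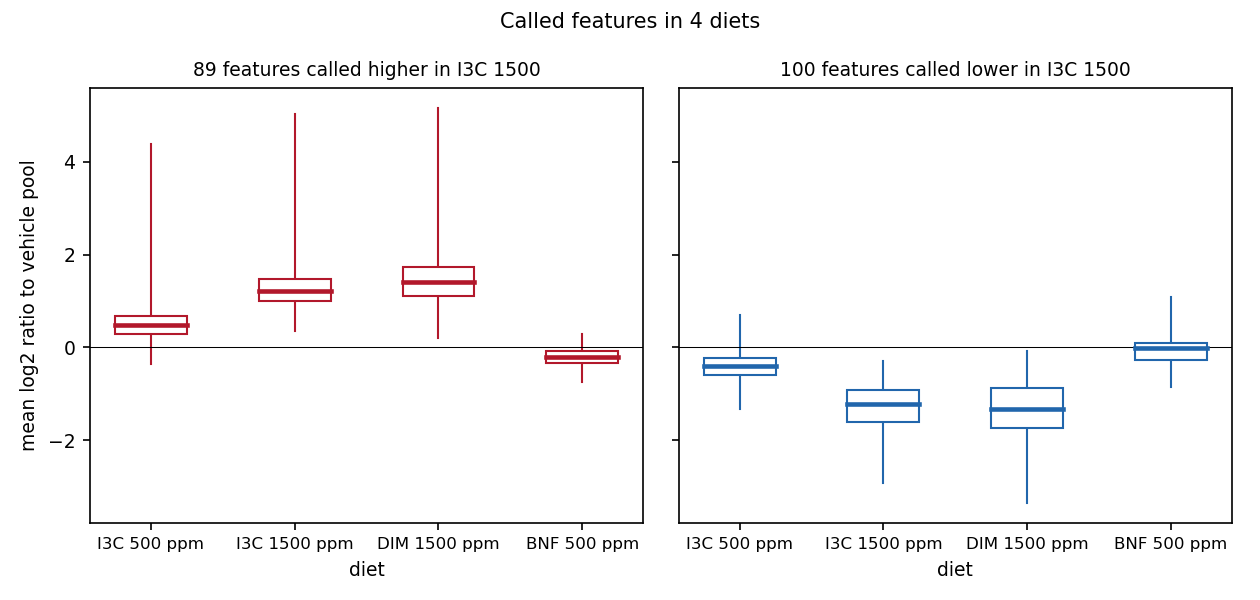
Box plots show the mean log2 ratio to the vehicle pool by diet for the 89 features higher and the 100 features lower with I3C 1500 ppm than with BNF 500 ppm. The medians are 0.47, 1.21, 1.42 and -0.21 in the higher set and -0.40, -1.23, -1.32 and -0.017 in the lower set, for I3C 500 ppm, I3C 1500 ppm, DIM 1500 ppm and BNF 500 ppm.

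The precision of a single difference was limited by 2 samples a diet. The median half-width of the 95% interval was 0.52, and the smallest called difference was 0.83 in size for I3C at 1500 ppm and 1.49 at 500 ppm. The interval lay within 1 of 0 on either side in 3515 of 4368 features (80.5%) for I3C at 1500 ppm and in 3904 (89.4%) for I3C at 500 ppm.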

How the data were processed

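The authors deposited log ratios per spot, whose base is not stated and was taken as 2. The exception is 1 array, the first BNF sample in Cy5. Its deposited values are a linear ratio with a median of 1.01 and were converted to log2. Per the labels, arrays were read with a ScanArray and QuantArray. How background was corrected and arrays normalised is not given in the sources used here. No intensity was used, so dim spots could not be filtered. Array medians ran from -0.81 to 0.49 on the 8 arrays compared. Arrays were centred on their medians, adjacent spots averaged, and the Cy3-titled value minus the Cy5-titled value, divided by 2, was taken per sample. limma 3.58.1 (R 4.3.3) was fitted to 8 samples of 4 diets and tested on simulated data. The estradiol and DIM 500 ppm diets entered alternatives only, because both arrays of replicate 1 in each ran against the others of their dye orientation (median r of -0.76 to -0.59). Genes came from the array annotation: of 33 Entrez genes, 27 matched the table of USDA_OmykA_1.1, which updated 2 symbols.

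Named were all annotated features, the 2 largest called differences each way, and the 2 features highest in BNF. Comparisons, members and lists were chosen with earlier results of these data known. The alternatives changed centring, scale, spots, diets, dye orientation, weights, the replicate block and single samples.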

Additional observations from a re-analysis of the deposited data

How the results depend on the processing

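The count of 189 features that differed between I3C at 1500 ppm and BNF was 134 without centring, 174 with print blocks centred, 283 of 8736 single spots, 225 with the 2 diets alone, 230 with single arrays fitted and 257 with array weights. It was 75 with arrays scaled to 1 median absolute deviation, 95 and 59 on Cy3-titled and Cy5-titled arrays alone, and 107 to 142 when single samples were left out. For I3C at 500 ppm the count of 8 was 1 after scaling, 5 after centring print blocks, 4 in a fit of the 2 diets alone, 3 on Cy5-titled arrays, 14 with array weights and 11 to 113 without single samples. With all 6 diets and the 4 unsettled arrays as deposited, limma called 0 features in both comparisons, with 233 and 77 at an unadjusted p under 0.05; there the differences were unchanged and the pooled spread rose. With those arrays turned, 190 and 7 were called. The labels share replicate numbers without saying what they mark. Across features, same-numbered deviations correlated at 0.065 for I3C at 1500 ppm and BNF, and at 0.40 for I3C at 500 ppm and BNF. The numbers were not taken as pairs, since the labels do not name them so. With only 2 pairs, whether the 0.40 reflects a pairing was not settled. A replicate block gave 208 and 22 calls. For the 9 called features singled out for I3C at 1500 ppm, annotated and unnamed together, 38 of 148 values lost the call and none changed sign. The losses were 10 of 17 for each ambp feature, 8 of 17 for LOC100136258 and 4 of 17 for LOC100136761. Each unnamed feature lost the call in 1 or 2 of 16, but these were picked for large differences or a high BNF mean. Annotated features were included at any called size, so the losses of the 2 groups cannot be compared. Of all 189 calls, 73 held with scaled arrays, 93 on Cy3-titled and 57 on Cy5-titled arrays alone. With 2 samples a diet, and no intensities used here, signal over background could not be weighed.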
